A study of Saccharomyces cerevisiae with 10 samples.

Results

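The 9 budding yeast cyclin genes that drive the Cdc28 kinase, CLN1 to CLN3 and CLB1 to CLB6, and SIC1, the gene of a Cdc28 inhibitor, were followed through adaptation to and recovery from salt stress. These 10 genes were chosen by gene symbol from the 5449 *Saccharomyces cerevisiae* genes that Affymetrix Yeast Genome 2.0 arrays measured. Each had 1 probe set, and each lay above the 95th percentile of the array's probe sets for another species (a background level) on 10 of 10 arrays.

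Cells of 1 haploid alpha strain (BQS1350, BY4742 background, his3, leu2, lys2 and ura3 markers, with the chromosomal GCN5 gene tagged as Gcn5-MYC13-KanMX6) were grown in rich YPD medium at 30 °C, so the tag and the markers were shared by every group. Sample A was normal growth in log phase. Sample B was taken 1 h after a dilution into medium of 1 M KCl, during stress adaptation, and Sample C later in the same medium, after stress adaptation. Sample D was taken 1 h after the medium was exchanged for YPD without KCl, during stress recovery, and Sample E after 2 to 3 further generations. Each group had 2 arrays, 1 from each of 2 culture batches, and replicate numbers were taken to name the batch. All levels are log2 values of the deposited normalization, and a difference of 1 is a factor of 2.

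Cyclins are the regulatory subunits that switch Cdc28 on and direct it to its substrates. Cln3 acts first in G1 and promotes transcription of CLN1 and CLN2, whose products drive budding and mark Sic1 for destruction. Sic1 holds the Clb kinases off until then. Clb5 and Clb6 start DNA replication, Clb3 and Clb4 act in S phase and in spindle assembly, and Clb1 and Clb2 drive mitosis. At the end of mitosis the Clb proteins are destroyed and SIC1 is transcribed again by Swi5. Osmotic stress is known to delay the cycle through the Hog1 kinase. The cultures were not synchronized, so in these bulk RNA samples fewer cells in a cycle phase and less RNA per cell cannot be told apart.

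The groups were not equally tight. Over all genes the root mean square gap between the 2 arrays of Sample B was 1.04 on the log2 scale, while Samples A, C, D and E had 0.32 to 0.48. Array medians ran from 9.59 to 10.19, the highest in Sample B replicate 2, and the 3′ probe set for 18S rRNA read 10.09 and 10.31 in Sample B against 11.21 to 12.66 elsewhere. The ACT1 3′ minus 5′ signal was 0.18 and 0.56 in Sample B and 0.25 to 0.37 elsewhere. The strain label was checked with 4 alpha-mating genes, all above background on 10 of 10 arrays (10.35 to 14.06). Of 6 a-mating genes (5.23 to 8.38), MFA2, the a-factor gene, was above background on 6 arrays, AGA2 on 9 and the other 4 on 10. All 5 genes taken as markers of the osmotic response, among them GPD1 (glycerol synthesis), rose in Sample B.

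CLB6 had the largest range of group means. Its lowest arrays were those taken in the hour after each change of medium (Samples B and D), its highest those of Samples A and C, and Sample E lay between. The remaining members differed less or differed in only 1 array of Sample B, and none of the 10 passed the main test (limma over all genes and all 10 arrays, Benjamini-Hochberg adjusted p under 0.05) in any of 7 comparisons. In Sample B minus Sample A that test called 4.4% of all genes. With the 2 culture batches as a block in the fit, CLB6 fell in Sample B (adjusted p = 0.0322).

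**Figure D1:**
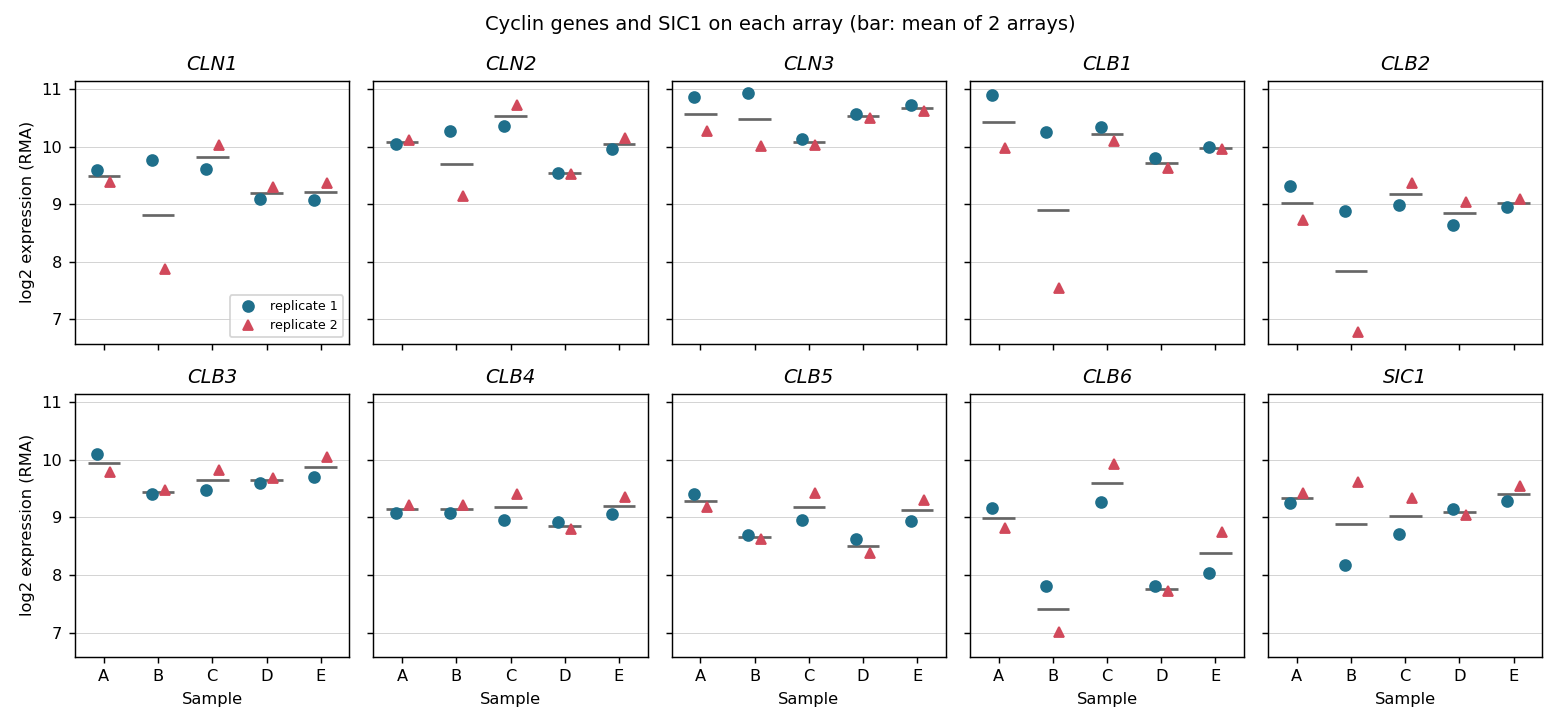
Log2 expression (y axis) of the 9 cyclin genes and SIC1 on each of the 10 arrays, by Sample A to E (x axis), with replicates as circles and triangles and the group mean as a bar. CLB6 was at or below 7.81 on all 4 arrays of Samples B and D, while the low Sample B means of CLN1, CLN2, CLB1 and CLB2 came from replicate 2. Heights of different genes are not comparable, since each probe set has its own response.

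CLB6 encodes the short-lived partner of Clb5, one of the cyclins that fire replication origins. Its arrays read 9.17 and 8.81 in Sample A, 7.81 and 7.003 in Sample B, 9.26 and 9.93 in Sample C, 7.80 and 7.72 in Sample D, and 8.03 and 8.74 in Sample E. Samples B and D overlapped each other and lay below every other array. The order of group means was C, A, E, D and B.

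In Sample B, CLB6 stood at 0.334 times its Sample A level, a log2 difference of -1.58 ± 0.38 (SE, 95% interval -2.43 to -0.73). The difference was -1.35 in replicate 1 and -1.81 in replicate 2. Its adjusted p was 0.0523 without the replicate block and 0.0322 with it, in a fit that called 2.59% of all genes lower. Setting each array's median to 0 before the fit gave -1.72 and an adjusted p of 0.0412, and 2.94% of all genes were then called lower. With the median set to 0, CLB6 read -0.65 and -0.88 in Sample A, -1.78 and -3.19 in Sample B, -0.36 and 0.05 in Sample C, -1.79 and -1.97 in Sample D, and -1.70 and -1.34 in Sample E. On this scale, too, Samples B and D held the 4 lowest values.

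From Sample B to Sample C, CLB6 was 2.19 ± 0.38 higher (SE, 1.45 and 2.93 in the replicates), a difference larger than that of 99.98% of all genes. It did not pass the test (adjusted p = 0.356, and 0.160 with the block), which called 0% of all genes in this step. Without the block 561 genes had an unadjusted p under 0.05 there, 3 members among them, and with it 853 did and 1 gene was called. CLB6 in adapted cells was 0.61 above Sample A (95% interval -0.24 to 1.46).

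After removal of KCl CLB6 was again low. Sample D differed from Sample C by -1.84 ± 0.38 (SE), with -1.46 and -2.22 in the replicates. The main fit estimates 1 spread per gene for all groups, which takes in the dissimilar Sample B arrays. For CLB6 itself the pooled SD within groups was 0.42 over all groups and 0.37 without Sample B. The main fit gave it an unadjusted p of 0.000934 and an adjusted p of 0.601 (0.217 with the block), and called 0% of all genes in Sample D minus Sample C. There 270 genes, 3 members among them, had an unadjusted p under 0.05, and the block fit called 1. In a fit without both Sample B arrays, chosen after seeing the data, CLB6 fell with an adjusted p of 0.0173 among 0.551% of all genes called lower. With the block added to that fit, the adjusted p was 0.00103 and 2.81% of all genes were called lower.

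CLB6 in Sample D also lay below normal growth, by -1.23 ± 0.38 (SE), with -1.36 and -1.09 in the replicates. The main test called 0% of all genes in Sample D minus Sample A (CLB6 adjusted p = 0.888, 0.477 with the block), where 219 genes had an unadjusted p under 0.05, CLB5 and CLB6 among them, and the block fit called 13. Without both Sample B arrays CLB6 reached 0.114, and 0.0182 with the block, where 0.532% of all genes were called lower. In Sample E it remained 0.60 below Sample A on average (95% interval -1.46 to 0.25), but replicate 1 differed by -1.13 and replicate 2 by -0.07. With array medians at 0 these were -1.05 and -0.46, and the mean of Sample E (-1.52) was nearer to that of Sample D (-1.88) than to that of Sample A (-0.76). Neighbouring means in the order C, A, E and D were 0.60 to 0.62 apart, and none of these differences passed the test.

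**Figure D2:**
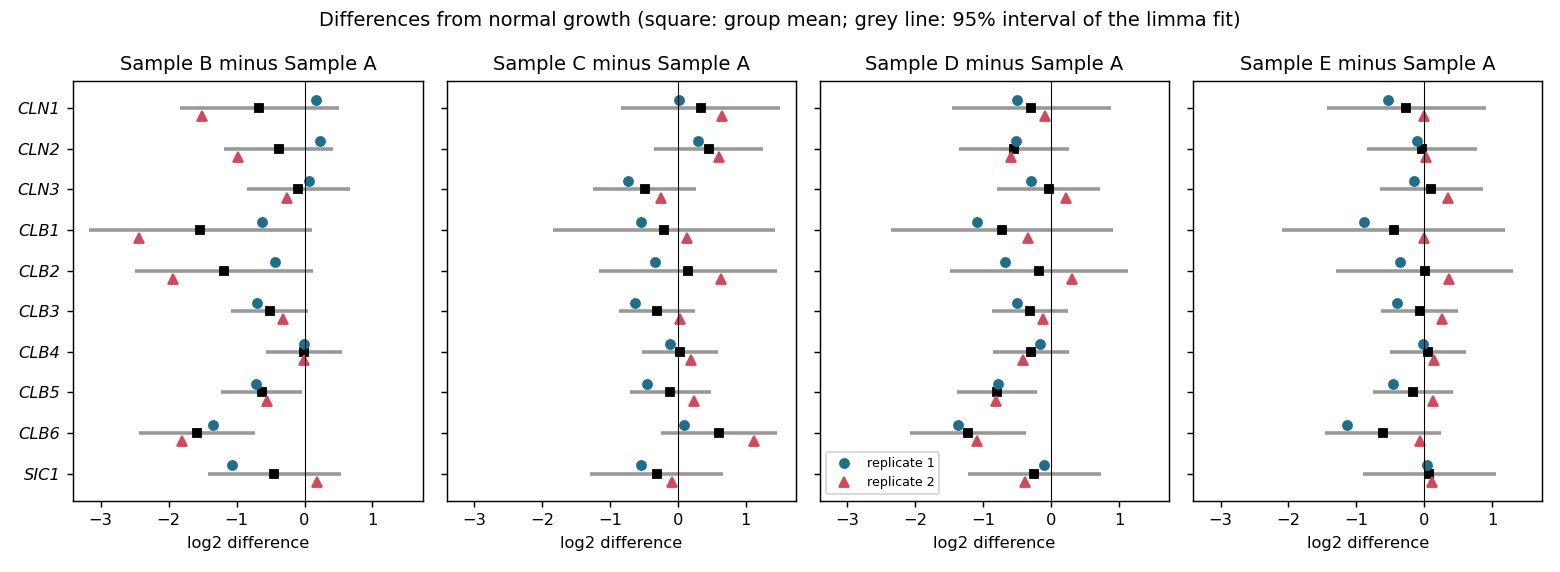
Log2 difference from Sample A (x axis) for each member (y axis) in Samples B to E, as the group mean (square), its 95% interval in the limma fit (grey line) and the difference within each culture batch (circle and triangle). In Samples B and D both batches of CLB6 and CLB5 lie left of 0, while in Sample B the batches of CLN1, CLN2, CLN3 and SIC1 lie on opposite sides of 0 (for SIC1 both lie below 0 once array medians are set to 0).

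A test across all 5 groups called 0.532% of all genes (limma moderated F). CLB6 came nearest among the members, with an adjusted p of 0.102 (0.0534 with the block), and CLB5 followed at 0.446. Over the 4 groups other than Sample B, CLB6 reached 0.0312 (0.00204 with the block) and CLN2 0.194 (0.0355 with the block). Leaving out Sample B was chosen after seeing the data, and the share of all genes called there was not counted.

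CLB5, the other S-phase cyclin gene, had a smaller difference in the same samples. Its levels were 9.40 and 9.18 in Sample A, 8.69 and 8.63 in Sample B, 8.95 and 9.42 in Sample C, 8.63 and 8.37 in Sample D, and 8.94 and 9.31 in Sample E. Both arrays of Sample B and of Sample D lay below all others. The differences from Sample A were -0.63 ± 0.26 in Sample B (SE, adjusted p = 0.221, 0.154 with the block) and -0.79 ± 0.26 in Sample D (adjusted p = 0.953, 0.512 with the block). From Sample C to Sample D it was -0.68, and from Sample D to Sample E 0.62, neither past the test. CLB5 and CLB6 came from the same ancient duplication, and whether probes of one also bind RNA of the other was not tested.

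The G1 cyclin genes CLN1 and CLN2, whose products act at Start, had their highest group means in adapted cells, but neither passed the test in Sample C minus Sample A (95% intervals -0.83 to 1.5 for CLN1 and -0.35 to 1.26 for CLN2). CLN2 read 10.06 and 10.12 in Sample A, 10.28 and 9.14 in Sample B, 10.36 and 10.72 in Sample C, 9.54 and 9.53 in Sample D, and 9.95 and 10.15 in Sample E. Sample C lay above and Sample D below all other arrays, apart from Sample B replicate 2, which was lowest. The step from Sample C to Sample D was -1.0 ± 0.35 (SE, -0.81 and -1.19 in the replicates). Its adjusted p was 0.914 (0.473 with the block), 0.0811 without both Sample B arrays, and 0.0122 with the block in that fit.

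CLN1 levels were 9.60 and 9.38 in Sample A, 9.76 and 7.88 in Sample B, 9.62 and 10.03 in Sample C, 9.10 and 9.30 in Sample D, and 9.07 and 9.37 in Sample E. Samples D and E lay just below Sample A, and Sample C above it, with replicate 1 of Sample C (9.62) close to Sample A (9.60) and below Sample B replicate 1. Replicate 2 of Sample B stood apart from the other 9 arrays, and its batch difference from Sample A was -1.5 where that of replicate 1 was 0.17. CLN2 split the same way, with -0.98 and 0.22. The group differences of Sample B from Sample A were -0.67 ± 0.51 for CLN1 and -0.38 ± 0.35 for CLN2 (SE, adjusted p = 0.529 and 0.614).

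CLN3, the upstream G1 cyclin, followed another course. It read 10.87 and 10.27 in Sample A, 10.94 and 10.02 in Sample B, 10.14 and 10.02 in Sample C, 10.58 and 10.49 in Sample D, and 10.72 and 10.62 in Sample E. Adapted cells were lowest on average, below Samples A, D and E, but the wide Sample B group covered them. The difference of Sample C from Sample A was -0.49 (95% interval -1.25 to 0.27), and that of Sample D from Sample C was 0.46 (-0.30 to 1.21). Neither passed the test.

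The mitotic cyclin genes CLB1 and CLB2 had the widest gap between the Sample B arrays. CLB1 read 10.89 and 9.97 in Sample A, 10.26 and 7.54 in Sample B, 10.35 and 10.11 in Sample C, 9.80 and 9.63 in Sample D, and 10.001 and 9.96 in Sample E. CLB2 read 9.32 and 8.73 in Sample A, 8.88 and 6.79 in Sample B, 8.98 and 9.37 in Sample C, 8.64 and 9.04 in Sample D, and 8.96 and 9.09 in Sample E. For both genes replicate 2 of Sample B was far below the other 9 arrays, and replicate 1 overlapped Sample A.

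Sample B differed from Sample A by -1.53 ± 0.72 for CLB1 (SE, adjusted p = 0.281, 0.133 with the block) and by -1.19 ± 0.58 for CLB2 (adjusted p = 0.295, 0.209 with the block). In replicate 1 these differences were -0.63 and -0.44, and in replicate 2 -2.43 and -1.94. In Samples C to E neither gene passed the test against Sample A. The largest of these differences was that of CLB1 in Sample D, at -0.72 ± 0.72 (SE), with -1.10 and -0.35 in the replicates and no overlap. Without both Sample B arrays its SE was 0.29, and its adjusted p 0.498 (0.142 with the block).

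CLB3 and CLB4, which contribute to S phase and the spindle, differed little. CLB3 read 10.11 and 9.79 in Sample A, 9.40 and 9.47 in Sample B, 9.47 and 9.82 in Sample C, 9.60 and 9.68 in Sample D, and 9.70 and 10.06 in Sample E. Its Sample B arrays did not overlap Sample A, at -0.51 ± 0.25 (SE, adjusted p = 0.295, 0.209 with the block). CLB4 stayed between 8.80 and 9.41 on all arrays. It read 9.07 and 9.21 in Sample B and 9.08 and 9.21 in Sample A, with a 95% interval of -0.56 to 0.55 for the difference. With array medians at 0 the batches differed by 0.21 and -0.51, and Sample B replicate 2 was the lowest array. On the deposited scale the values were lowest in Sample D (8.91 and 8.80) and highest in Sample C replicate 2 (9.41).

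SIC1, the inhibitor gene, was low in Sample B replicate 1. Its levels were 9.25 and 9.43 in Sample A, 8.18 and 9.61 in Sample B, 8.71 and 9.34 in Sample C, 9.15 and 9.04 in Sample D, and 9.28 and 9.54 in Sample E. On this scale Sample B held both its lowest value, in replicate 1, and its highest, in replicate 2. The difference of Sample B from Sample A was -1.07 in replicate 1 and 0.18 in replicate 2, and -0.45 ± 0.43 for the group (SE, adjusted p = 0.625, 0.466 with the block). The sign in replicate 2 turned with the scale. With array medians at 0 the differences were -0.85 and -0.33, the highest array was Sample A replicate 2, and Sample B lay below Sample A without overlap (adjusted p = 0.236).

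Sample B therefore gave different answers from its 2 arrays. Replicate 2 was the lowest of all 10 arrays for 6 members (CLN1, CLN2, CLN3, CLB1, CLB2 and CLB6), 60% of them against 15.2% of all genes, although its array median was the highest. Replicate 1 was lowest for CLB3 and SIC1. With array medians at 0, replicate 2 was the lowest array for 9 members, all but SIC1, or 90% against 33.6% of all genes. With replicate 2 as the only Sample B array, 5 members (CLN1, CLN2, CLB1, CLB2 and CLB6) were called lower than in Sample A, against 7.49% of all genes. With replicate 1 alone SIC1 was called lower, against 5.14% of all genes. In both cases the lone array is assumed to vary like the other groups. The step to Sample C had the same 5 members called higher from replicate 2 alone, against 4.17% of all genes. Replicate 2 also held the lowest value of all 4 alpha-mating genes, of which MF(ALPHA)2 (-2.14) and SAG1 (-1.83) fell in Sample B in the block fit (adjusted p = 0.0256 and 0.0148). The part of these genes, and of the rRNA and ACT1 values of Sample B, in these results was not tested.

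Across the 10 members the direction was often shared. All 10 group differences lay below 0 in Sample B minus Sample A, with a median of -0.57 against 0.08 over all genes, of which 43.4% lay below 0. That of CLB4 was only -0.004. CLN1, CLN2 and CLN3 were above 0 in replicate 1 (0.17, 0.22 and 0.07) and SIC1 in replicate 2 (0.18), and the other members were below 0 in both. In 3 members (CLB3, CLB5 and CLB6) the 2 groups did not overlap, where 15.9% of all genes were lower in this way. With array medians at 0 SIC1 joined them, and 22.6% of all genes were lower. From Sample B to Sample C the median was 0.68 against -0.10 for all genes, and only CLN3 lay below 0 (-0.40). The 2 replicates differed widely at this step. In replicate 1 CLN1, CLN3 and CLB4 lay below 0 (-0.15, -0.80 and -0.11), and CLN2, CLB1, CLB2 and CLB3 were at 0.07 to 0.10. In replicate 2 only SIC1 lay below 0 (-0.26), and CLN1, CLB1 and CLB2 were at 2.16 to 2.58. Sample C lay above Sample B with no overlap for CLN2, CLB2, CLB3, CLB5 and CLB6, against 12.4% of all genes.

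The median of the members lay less far below Sample A in Sample D than in Sample B. CLN2 (-0.55), CLB4 (-0.29) and CLB5 (-0.79) went the other way, with -0.38, -0.004 and -0.63 in Sample B. Removal of KCl came together with pelleting and fresh medium, and these cannot be told apart. Sample D had 8 members below Sample A without overlap, where 31.8% of all genes were, and the median of the members was -0.30 against -0.12. After array medians were set to 0, 6 members remained against 18.1% of all genes. Compared with Sample C, 6 members were lower in Sample D without overlap against 29.5% of all genes (7 against 24% with medians at 0). In Sample E, 8 members lay above Sample D with no overlap, but so did 47.9% of all genes. With medians at 0 these were 3 members (CLN2, CLB5 and CLB6), against 18.6% of all genes.

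Adapted and recovered cells were also compared with normal growth. The median of the members was -0.04 in Sample C minus Sample A (all genes -0.01), where the main test called 0.0184% of all genes. Members lay on both sides of 0 there, from 0.61 for CLB6 to -0.49 for CLN3. The median was -0.05 in Sample E minus Sample A (all genes 0.13), where 0% of all genes were called. After array medians were set to 0 this median was -0.21, with 10 of 10 members below 0 in place of 6, and 54.4% of all genes below 0. At an unadjusted p under 0.05, 0 members differed in either comparison with Sample A, and 255 and 47 of all genes did. With the replicate block 35 genes were called higher and 7 lower in Sample C minus Sample A, and 0 in Sample E minus Sample A, none of them members. Without both Sample B arrays 81 genes were called higher and 14 lower in Sample C minus Sample A and 0 in Sample E minus Sample A, again without a member. Sample E minus Sample D also had 0% of all genes called, with 213 genes and 1 member (CLB5) at an unadjusted p under 0.05 and 1 gene called with the block.

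Genes that act on Cdc28 or on cyclin transcription were read from lists of other members of the pathway. Of 15 regulators of Cdc28, 1 fell in Sample B and 0 rose, where the test called 0.899% of all genes lower and 3.51% higher. This was FAR1, an inhibitor of the Cln kinases that also serves pheromone arrest. FAR1 read 10.90 and 10.27 in Sample A, 9.47 and 8.09 in Sample B, 10.54 and 10.74 in Sample C, 9.69 and 9.59 in Sample D, and 10.43 and 10.39 in Sample E. It was lowest in Sample B and next lowest in Sample D, with neither overlapping Sample A. Its Sample B difference was -1.81 ± 0.42 (SE, adjusted p = 0.0499, 0.0183 with the block).

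CDC20, the activator of the anaphase-promoting complex that destroys Clb proteins, differed by -1.19 ± 0.29 (SE) and passed only with the block (adjusted p = 0.0552, then 0.0305). HSL7, which restrains the Swe1 kinase, differed by -0.73, and CDC34, the ubiquitin-conjugating enzyme that acts on Sic1, by -0.61, neither past the test.

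Among 15 measured transcription regulators of cyclin genes (16 listed), 1 rose and 1 fell in Sample B, against the same 3.51% and 0.899% of all genes. XBP1 rose. It encodes a stress-induced repressor known to act on CLN and CLB promoters. Its levels were 5.20 and 4.95 in Sample A, 9.20 and 9.13 in Sample B, 8.03 and 6.65 in Sample C, 5.91 and 7.24 in Sample D, and 4.96 and 6.21 in Sample E. Sample B was above every other array, and both Sample A arrays were under the background level. Measured against that level XBP1 was at least 12.3-fold higher in Sample B. The test took the deposited values, with a log2 difference of 4.09 (adjusted p = 0.0114, 0.00540 with the block).

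YHP1, a homeodomain repressor that limits CLN3 and SWI4 transcription to a window of the cycle, fell by 1.56 in Sample B (adjusted p = 0.0387, 0.0239 with the block). Its arrays were at 9.79 and 9.50 in Sample A and 8.51 and 7.66 in Sample B. NRM1, a co-repressor of G1 genes, differed by -1.33 and SWI5, the activator of SIC1, by -1.22, and neither passed the test. None of 11 genes for Pho85 and its cyclins, the other cyclin family of yeast, passed the main test in Sample B, and 4 had an unadjusted p under 0.05 (20% of all genes). The largest differences were -0.85 for PCL9, 0.83 for PCL5, -0.81 for PCL1 and 0.78 for PCL8, a cyclin of glycogen control. With the block PCL8 rose (adjusted p = 0.0446).

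The 3 lists of genes transcribed at set points of the cycle gave 0 calls in the main fit in all 7 comparisons, and CDC20 was the 1 call with the block. In Sample B minus Sample A 2 of the G1/S genes, 6 of the G2/M genes and 2 of the M/G1 genes had an unadjusted p under 0.05, as did 20% of all genes. The 17 G1/S genes, transcribed with CLN2 and CLB6, had a median of 0.01 in Sample B minus Sample A and 0.33 in Sample C minus Sample A. Their median was -0.66 in Sample D minus Sample C, with 17 of 17 below 0, where all genes had a median of -0.09 and 64.4% of them lay below 0. CLB6 (-1.84) and CLN2 (-1.0) differed by more than this median at that step. In Sample B the largest differences were -0.85 for MCD1 (a cohesin subunit), -0.84 for GIC1 (an effector of Cdc42), -0.81 for PCL1 and -0.68 for PCL2.

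The 13 measured G2/M genes, transcribed with CLB1 and CLB2, had a median of -0.65 in Sample B minus Sample A (11 of 13 below 0, against 43.4% of all genes). Replicate 2 of Sample B was the lowest array for 10 of the 13, and their batch medians were -0.38 and -0.84. After SWI5 and CDC20 the largest differences were -1.03 for CDC5, the polo kinase gene, and -0.97 for HOF1 (cytokinesis). The 13 M/G1 genes, transcribed with SIC1, had a median of -0.64 there, with 12 of 13 below 0 and PCL9 (-0.85) and EGT2 (-0.84) lowest, ahead of TEC1 and DSE4 (both -0.79). In Sample E minus Sample A they had a median of 0.37, with 13 of 13 above 0, where all genes had 0.13 and 78.3% of them lay above 0. With array medians at 0 these values were 0.22 and -0.02, and 2 of the 13 and 54.4% of all genes lay below 0.

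**Figure D3:**
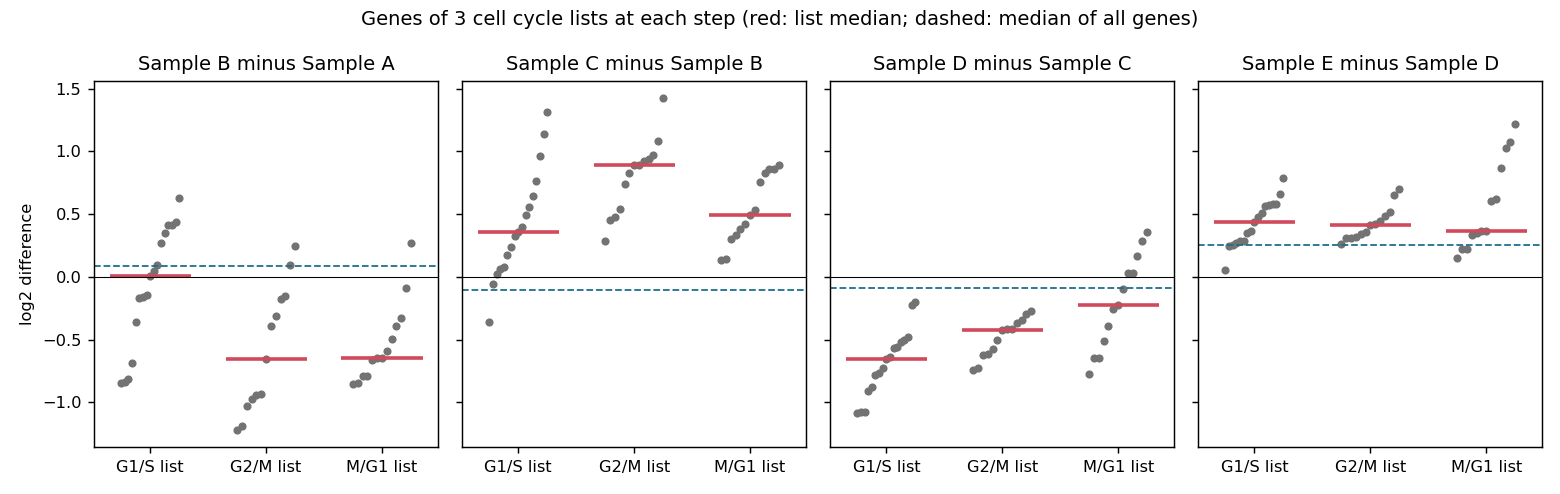
Log2 difference (y axis) of each gene (grey point) in the G1/S, G2/M and M/G1 lists (x axis) at the 4 successive steps of the regime, with the list median (red bar) and the median of all genes (dashed line). The G1/S genes lie furthest below the dashed line from Sample C to Sample D, with a median of -0.66, and the G2/M genes furthest above it from Sample B to Sample C, with a median of 0.89.

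The genes nearest to each member in course over the 10 arrays were sought with Pearson's r on values minus the array median. This is a description, since the arrays are shared and 1 array can carry it. For CLB6 the nearest were YOX1 (r = 0.97), a homeodomain repressor, and ACM1 (r = 0.96), an inhibitor of the Cdh1 form of the anaphase-promoting complex. Without Sample B replicate 2 these were 0.99 and 0.92. YOX1 read 9.95 and 9.59 in Sample A, 8.99 and 9.12 in Sample B, 9.75 and 10.45 in Sample C, 8.84 and 8.92 in Sample D, and 9.10 and 9.73 in Sample E. It was low in Samples B and D, as CLB6 was, with a smaller difference from Sample A in Sample B (-0.72, adjusted p = 0.252).

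**Figure D4:**
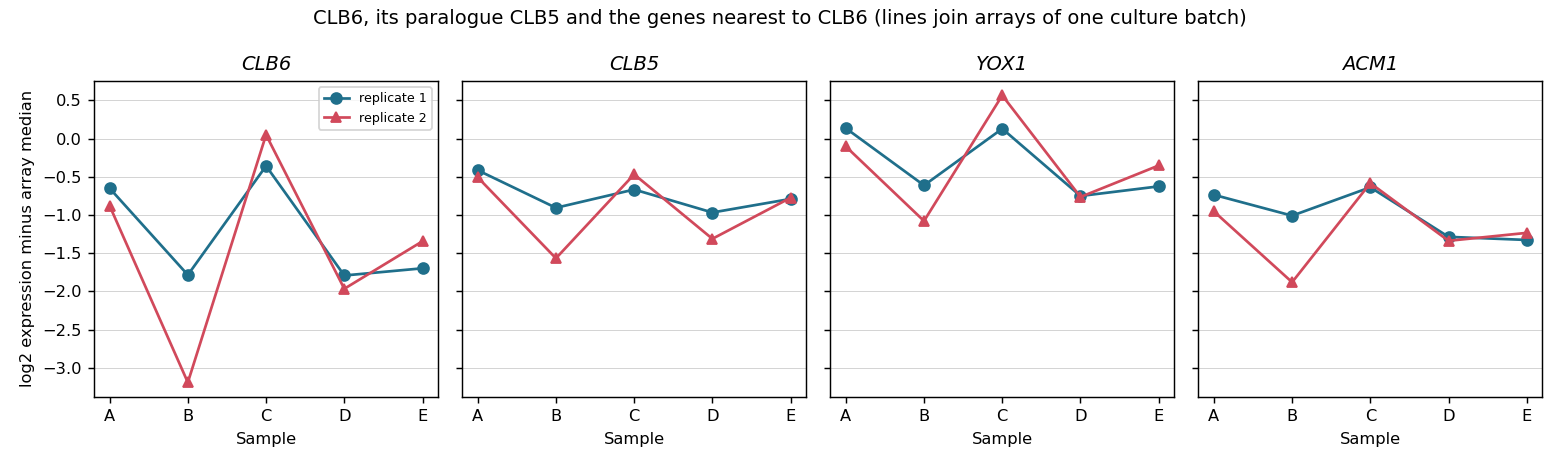
Log2 expression minus the array median (y axis) of CLB6, CLB5, YOX1 and ACM1 in Samples A to E (x axis), with a line for each of the 2 culture batches. In both batches all 4 genes are lower in Sample B than in Sample A and lower in Sample D than in Sample C, and CLB6 goes lowest, to -3.19 in replicate 2 of Sample B.

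How far the other likenesses rested on Sample B replicate 2 varied. CLB1 was nearest to NRM1 (r = 0.99, 0.89 without Sample B replicate 2) and CLB2 to KIN3 (0.98, then 0.64) and to the phosphate transporter gene PHO84 (0.98, then 0.17). CLN1 was nearest to GIC2, an effector of Cdc42 (0.95, then 0.76), and CLN2 to MNN11 (0.96, then 0.90). CLB5 was nearest to DPB2, a subunit of DNA polymerase epsilon (0.97, then 0.96), CLN3 to TNA1 (0.97 both ways) and SIC1 to CAB3 (0.97 both ways). CLB3 was nearest to SVF1 (0.97, then 0.90) and CLB4 to HOC1 (0.95, then 0.92).

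Some members lie next to each other in the genome. CLB1 and CLB6 are direct neighbours on chromosome VII, and CLB2 and CLB5 on chromosome XVI, each pair transcribed toward each other. From Sample C to Sample D CLB6 differed by -1.84 and CLB1 by -0.52, and CLB5 by -0.68 and CLB2 by -0.33. The duplicated pairs also differed in size at this step, with -1.0 for CLN2 and -0.63 for CLN1. None of these differences between genes was tested.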

How the data were processed

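Total RNA of 10 samples (5 groups of 2) was hybridised to Affymetrix Yeast Genome 2.0 arrays. The deposited values are log2 expression values, which the authors made by robust multi-array averaging (RMA: background correction, normalization and summary of each probe set) in Affymetrix Expression Console. The program's version, and whether all arrays were normalized in 1 run, are not given in the sources used here. Of 10928 probe sets, 7244 had 1 gene symbol, 1 several and 3683 none, and 5498 matched *S. cerevisiae* genes (RefSeq table of assembly R64). For genes with several probe sets (47) the brightest was kept, giving 5449 genes. The 1746 other-species probe sets served as background. No sequences were used. Gene positions and locus tags of the RefSeq table served only to find members that are neighbours and their strands.

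Groups were compared with limma (version 3.58.1, R 4.3.3), 1 coefficient per group over all 10 arrays, eBayes and Benjamini-Hochberg adjustment over 5449 genes, two-sided. The 7 comparisons were Samples B to E against A, C against B, D against C and E against D, and a moderated F test covered the 5 groups. Per the labels, replicates were separate culture batches, and same-numbered arrays were taken to come from the same batch. Deviations from group means of same-numbered arrays correlated at 0.22 to 0.52 (median 0.43, 10 pairs of groups). The fit with the batch as a block is given beside the main fit. P-values of the main fit measure the spread between the 2 arrays within groups, as 1 spread per gene over all groups. Those of the block fit leave out the part of it that the batches share across groups. Both rest on these 2 batches, and 2 arrays a group limit the precision of every value. In simulated data for Sample B against Sample A (5449 genes), the main fit found 24 of 100 genes given a change of log2 1 and 75 of 100 given log2 2, and made 4 false calls. The block fit found 12 and 71, with 2 false calls. The simulated noise was independent between arrays, with 1 spread per gene for all groups and no batch effect. The real arrays differ in both respects, so these counts do not describe them.

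The members and lists were chosen with earlier results of these data known. All members are named, as are, from each list, genes past the test in Sample B minus Sample A and the largest differences there, up to 4, and the genes nearest each member. Alternatives were centring, quantile normalization, the block, the 2 groups alone, a filter on dim genes, all probe sets, and leaving out each array.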

Additional observations from a re-analysis of the deposited data

How the results depend on the processing

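No member passed the main test, and the number called depended on how Sample B was treated. In Sample B minus Sample A 1 member (CLB6) was called with arrays centred on their median, with the replicate block, and with both. In that comparison these fits called 293, 442 and 522 of all 5449 genes higher, and 160, 141 and 412 lower. With quantile normalization, the filter on dim genes, all probe sets or the 2 groups alone, 0 members were called in it. Leaving out 1 array gave 0 to 5 members there, 0 to 5 in Sample C minus Sample B, 0 to 1 in Sample D minus Sample C and 0 to 5 in the test over all groups. In Sample D minus Sample C 1 member was called with the 2 groups alone and without both arrays of Sample B, and 2 without those arrays and with the replicate block. In that comparison these fits called 12, 12 and 51 of all genes higher, and 26, 30 and 153 lower. Sample D minus Sample A had 1 member in the last of these fits, which called 119 of all genes higher and 29 lower there. The test over all groups had 1 member without both arrays of Sample B and 2 with the block added. For that test the share of all genes called was not counted in these fits, or with 1 array left out. Its member counts there therefore cannot be weighed against all genes. The fits that joined centring and block, or left out both Sample B arrays, were chosen after seeing the data. The cause of these shifts was not tested, except that leaving Sample B out removes its wide spread by construction.

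Of 70 member differences, 35 exceeded 1 SE. Of their 635 values under the alternatives 5 had the opposite sign, all from leaving out an array of Sample B. Over the arrays left out, Sample B minus Sample A ran from -1.61 to 0.27 for CLN1, from -0.95 to 0.19 for CLN2 and from -1.16 to 0.27 for SIC1. Sample C minus Sample B ran from -0.85 to 0.064 for CLN3 and from -0.034 to 2.69 for CLB1.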
